A study of Mus musculus with 4 samples.

Results

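The genes described here are 10 leukocyte integrin genes, Itgam, Itgax, Itgal, Itgb2, Itga4, Itgb1, Itga2b, Itgb3, Itgb7 and Itga6. They were chosen by name, from 21887 mouse protein-coding genes on the numbered chromosomes, X and Y, and all 10 were found. Acetylation of histone H3 at lysine 27 (H3K27ac), a mark of active promoters and enhancers, was measured by fanChIP, an immunoprecipitation of native chromatin fragments, followed by sequencing. The BN1 library came from CD45.2+ bone marrow cells of C57BL/6 mice with the genotype cKit(+) BRD9-NUTM1, BN1 being the submitters' name for that leukaemia fusion of a BAF complex subunit with a testis protein. The control library came from CD45.2+ bone marrow cells of the same strain with the genotype cKit(+) and no fusion named. CD45.2 is a form of the leukocyte antigen CD45, and cKit is a receptor kinase on blood progenitors. Each group had 1 ChIP library, so differences lack a replicate check and none was tested. An input library of each group was not analysed here.

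Each library was read through the authors' list of called peaks. The BN1 list held 19148 peaks over 19.1 Mb and the control list 28343 peaks over 31.0 Mb. Read depth is unknown and limits which weak regions could be called. The names inside the lists go against the sample titles, since peaks of the BN1 list carry the prefix BM and peaks of the control list the prefix BRNU. The extraction label names cKit+ BN1 cells for all samples, controls included. "BN1 list" and "control list" therefore mean the library labelled so, and every direction rests on that label. Ptprc, the gene of CD45, had peaks at its start in both lists, over 2958 bp in the BN1 list and 6634 bp in the control list. Kit, which encodes cKit, had none in either list. The cells were measured in bulk, and fewer cells with a mark and less of it per cell cannot be told apart.

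Integrins are adhesion receptors made of an alpha and a beta chain, which bind ligands on other cells or in the matrix and switch between a resting and an active shape. Leukocytes share the beta chain of Itgb2, which pairs with the alpha chains of Itgal, Itgam and Itgax in cell contacts, phagocytosis and passage out of vessels. The alpha chain of Itga4 pairs with the beta chain of Itgb1 or Itgb7 and holds progenitors in the marrow and lymphocytes at vessel walls. Itga2b and Itgb3 form the fibrinogen receptor of platelets, and the alpha chain of Itga6 pairs with that of Itgb1 to bind laminin.

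All 10 genes had a peak in their window, which is the RefSeq gene span with 10 kb on each side, as had 62.2% of all protein-coding genes. Peaks were present in both lists at 9 genes and in the control list only at 1 gene, Itga2b. Over the 13606 protein-coding genes with a peak in either list, 80.8% had peaks in both, 6.13% in the BN1 list only and 13.1% in the control list only. The covered length, which is the number of bp under peaks in the window, was greater in the BN1 list at 3 genes (Itgal, Itga4 and Itgb7) and greater in the control list at the other 7. At Itgb7 the lengths were close, 570 bp in the BN1 list and 517 bp in the control list. Both came from peaks inside the neighbouring gene Rarg. The BN1 list was longer at 29.3% of all genes with a peak and the control list at 70.7%. The total covered lengths differ 1.62-fold, a ratio of BN1 to control of -0.70 on the log2 scale. Whether that ratio applies evenly to every gene was not tested. After division by each list's total in Mb, the same 3 genes were longer in the BN1 list and the same 7 in the control list, whereas over all genes with a peak the shares were 58.2% and 41.8%. Per Mb, Itgb3 was longer in the control list by only 1.05-fold. The division of the 10 genes moved with the peaks and flanks counted. Among peaks whose −log10 q reached 10, 5 genes were longer in the BN1 list and 4 in the control list. With the top 10000 peaks of each list, these counts were 5 and 3, and with 50 kb flanks they were 0 and 10. The matching shares over all genes are not given, so these counts describe the 10 genes only.

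A difference of at least 2-fold in bp was present at 1 gene towards the BN1 list (Itgal; 10.5% of all genes with a peak) and at 6 towards the control list (Itgam, Itgax, Itgb2, Itgb1, Itga2b and Itga6; 33.9%). Per Mb of covered length it was present at 2 genes in each direction. These were Itgal and Itga4 towards the BN1 list (19.0% of all genes with a peak) and Itgam and Itga2b towards the control list (22.8%). A gene with peaks in 1 list only counted as past 2-fold, here and in the shares over all genes. Itga2b passed only by that rule, with 1 control peak of 424 bp that was not among peaks whose −log10 q reached 5. The median difference over the 10 genes, BN1 minus control, was -2116 bp, against -457 bp over all genes with a peak. Per Mb it was -23.8 bp, against 10.2 bp. The integrin windows were long, with a median of 63463 bp against 42087 bp over all genes with a peak, so they could hold more peaks.

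**Figure D1:**
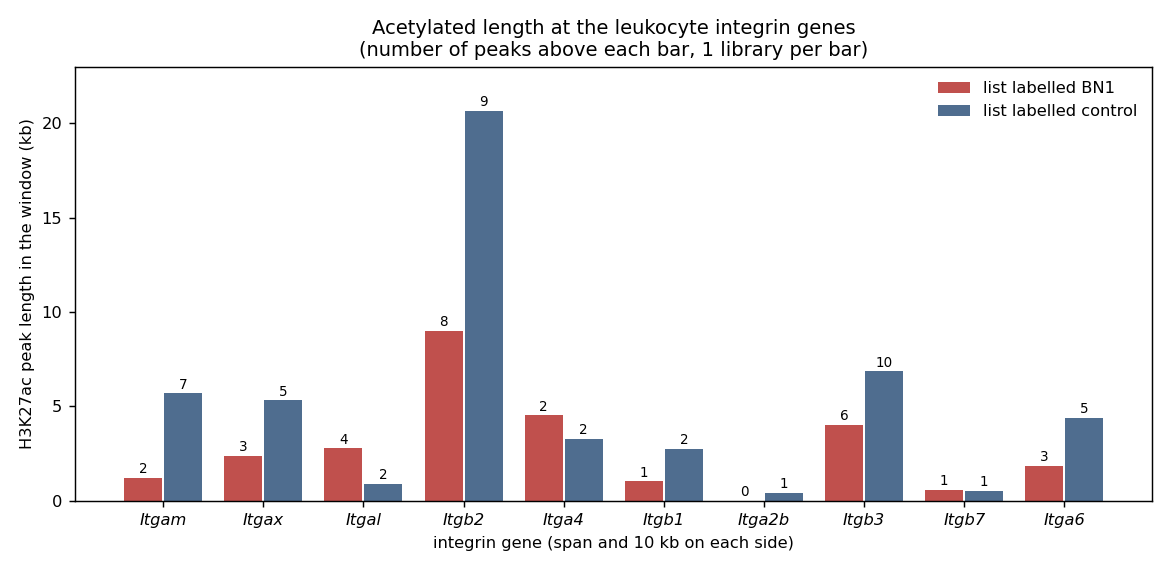
Covered length in kb in each gene's window, BN1 list left and control list right, 1 library per bar, with the number of peaks above the bar. Itgb2 carried the longest covered length in both lists (8999 and 20653 bp), and Itgal, Itga4 and Itgb7 were the genes with more in the BN1 list. At Itgb7 the difference was 53 bp.

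Active genes usually carry H3K27ac on both sides of the start of transcription. A peak within 1000 bp of the start site was present in both lists at 6 genes (Itgam, Itgb2, Itga4, Itgb1, Itgb3 and Itga6; 39.3% of all genes), in the BN1 list only at Itgal (3.11%), in the control list only at Itgax (6.35%) and in neither at Itga2b and Itgb7 (51.2%). These shares are over all 21887 protein-coding genes, including those without any peak, whereas all 10 integrin genes had a peak. Start sites came from the RefSeq promoter table for 6 of the 10 genes, and either gene end was used for Itgal, Itgb2, Itgb3 and Itga6. Promoters of 4 genes are shown because a peak lay over them and their peaks differ between the lists. Each runs from 250 bases before to 50 after the start site (RefSeq, GRCm38.p6, all on the plus strand), and capitals mark GAGGAA, the core bound by the myeloid factor PU.1, and TGTGGT, the core bound by RUNX factors, on either strand.
Itgam (chr7:128062390-128062689): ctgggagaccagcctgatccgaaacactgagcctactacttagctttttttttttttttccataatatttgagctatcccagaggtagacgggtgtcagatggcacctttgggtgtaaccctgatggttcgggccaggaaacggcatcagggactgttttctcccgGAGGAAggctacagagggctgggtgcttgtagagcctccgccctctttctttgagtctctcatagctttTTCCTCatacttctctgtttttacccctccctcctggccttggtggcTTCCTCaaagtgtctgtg
Itgax (chr7:128129300-128129599): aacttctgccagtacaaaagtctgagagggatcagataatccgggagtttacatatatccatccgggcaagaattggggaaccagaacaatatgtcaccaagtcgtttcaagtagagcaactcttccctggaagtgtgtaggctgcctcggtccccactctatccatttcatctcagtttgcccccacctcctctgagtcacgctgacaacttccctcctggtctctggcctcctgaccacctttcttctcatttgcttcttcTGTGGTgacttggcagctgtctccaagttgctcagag
Itga4 (chr2:79255176-79255475): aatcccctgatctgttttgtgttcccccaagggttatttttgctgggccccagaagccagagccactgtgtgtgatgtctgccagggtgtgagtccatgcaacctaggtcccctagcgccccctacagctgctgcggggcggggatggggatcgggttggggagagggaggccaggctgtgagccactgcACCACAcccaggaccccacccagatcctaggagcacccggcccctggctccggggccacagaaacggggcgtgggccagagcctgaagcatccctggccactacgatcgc
Itgb1 (chr8:128685404-128685703): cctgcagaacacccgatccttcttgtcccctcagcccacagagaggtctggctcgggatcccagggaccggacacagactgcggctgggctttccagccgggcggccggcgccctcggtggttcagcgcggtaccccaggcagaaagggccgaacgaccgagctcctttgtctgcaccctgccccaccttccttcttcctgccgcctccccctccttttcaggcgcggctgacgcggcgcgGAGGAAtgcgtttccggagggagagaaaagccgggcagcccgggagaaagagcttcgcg

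The Itgam sequence holds 3 matches to GAGGAA, whose first bases lie 84 and 15 bases before and 32 bases after the start site, and all of its 300 bases lay under a peak in both lists. The Itgax sequence holds 1 match to TGTGGT, 13 bases after the start, and lay wholly under a control peak and under no BN1 peak. The Itga4 sequence holds 1 match to TGTGGT, 60 bases before the start, and the Itgb1 sequence 1 match to GAGGAA, 9 bases before it. Both lay wholly under a peak in both lists. Among 21263 promoters of protein-coding genes in the table, 27.4% hold GAGGAA and 15.0% hold TGTGGT on either strand, and the marked matches do not overlap. Other letters searched for are not marked. These were the Sp1 site GGGCGG, matched in Itgam, Itga4 and Itgb1, and the GATA site AGATAA, matched in Itgax. GGGCGG is held by 46.2% of all promoters and AGATAA by 9.65%. The Itga2b promoter holds GAGGAA 2 times and the Itgb7 promoter 1 time, and neither lay under a peak in either list. Itgb1 had 27 CpG dinucleotides in its 300 bases, Itga4 had 10, Itgam 6 and Itgax 5, against a median of 13 over all promoters (quartiles 4 and 24). These matches are letters in a window and were not tested as binding sites.

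Itgb2, the common beta chain of leukocyte integrins (chromosome 10, 77530329 to 77565708), was the most widely acetylated of the 10 genes. Its window held 8 peaks over 8999 bp in the BN1 list and 9 peaks over 20653 bp in the control list, or 16.2% and 37.3% of the window. These lengths stood at or above those of 99.3% of all protein-coding genes in the BN1 list and 99.8% in the control list. The 2 lists covered 8160 bp in common, which is 90.7% of the BN1 length and 39.5% of the control length, so the BN1 peaks lay mostly within control peaks. Below the gene both lists had a peak over the noncoding gene Gm36040, of 1805 bp in the BN1 list and 2150 bp in the control list. At the lower gene end a BN1 peak of 1411 bp faced a control peak of 5239 bp, and a second BN1 peak of 343 bp lay under that same control peak. The strongest BN1 peak of the window (fold enrichment 13.5) and the strongest control peak (13.9) lay about 6.9 kb into the gene, with summits 45 bp apart. The 12493 bp found only in the control list lay partly in 4 unshared peaks, with summits 8.5 to 17.5 kb from the lower gene end, which together covered 7072 bp. No BN1 peak lay in that stretch. The control list was 2.30-fold longer in bp and 1.41-fold longer per Mb. With each list cut to its top 10000 peaks the lengths were 8054 bp in the BN1 list and 8876 bp in the control list.

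Itgam encodes CD11b, the alpha chain of the complement receptor of neutrophils, monocytes and macrophages (chromosome 7, 128062640 to 128118491). Its window held 2 peaks over 1224 bp in the BN1 list and 7 peaks over 5695 bp in the control list, a 4.65-fold greater length in the control list (2.87-fold per Mb). Of the BN1 length 99.0% lay under control peaks. Both lists had a peak across the start site, of 967 bp in the BN1 list and 1021 bp in the control list, with 955 bp in common. That peak stood at the 44.2 percentile of fold enrichment within the BN1 list and at the 96.8 percentile within the control list. The lists differ in length, so these ranks describe each list and show no change. The control list held further peaks with no BN1 counterpart, among them one with its summit 1.7 kb after the start and one 27.1 kb after it, inside the gene. The 2 control peaks above Itgam (708 bp and 2073 bp wide) also belong to the window of Itgax, and the wider one reaches only 9 bp into the window of Itgam. The pseudogenes Gm22809 and Gm45700 end within 1000 bp of peaks of this window.

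Itgax encodes CD11c, an alpha chain used as a marker of dendritic cells and also present on macrophages (chromosome 7, 128129526 to 128150657). Its window held 3 peaks over 2363 bp in the BN1 list and 5 peaks over 5325 bp in the control list. The control peak of 2073 bp across its start site (fold enrichment 7.34) had no BN1 counterpart. Both lists shared a peak inside the gene, of 1088 bp in the BN1 list and 1242 bp in the control list, with summits 184 bp apart and about 4 kb past the start. A BN1 peak of 910 bp above the gene lay within the pseudogene Gm17831 and had no control counterpart. The shared length of 1088 bp was 46.0% of the BN1 length and 20.4% of the control length. Among peaks whose −log10 q reached 5, the window held 2363 bp in the BN1 list and 3315 bp in the control list, and among the top 10000 of both lists it held none.

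Itgal encodes CD11a, the alpha chain of the receptor with which lymphocytes and other leukocytes bind ICAM molecules (chromosome 7, 127296139 to 127335137). It differed in the other direction, with 4 peaks over 2782 bp in the BN1 list and 2 peaks over 881 bp in the control list, a 3.16-fold greater length in the BN1 list (5.12-fold per Mb). A BN1 peak of 1453 bp lay across the lower gene end (fold enrichment 9.66, at the 65.9 percentile of its list), and the control list had no peak there or anywhere inside the gene. A pair of further BN1 peaks, of 782 and 470 bp, lay below the gene at the noncoding gene Gm31897 and near the pseudogene Gm17511, and a control peak of 274 bp lay close by without overlap. The single region common to both lists was at the upper end of the neighbour Zfp768, a zinc finger gene, and only 77 bp of it were common within the window. Without the region above the gene, the control list had 274 bp in this window. With 50 kb flanks, which take in more neighbours, the difference for Itgal turned to -807 bp (6625 bp in the BN1 list and 7432 bp in the control list).

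**Figure D2:**
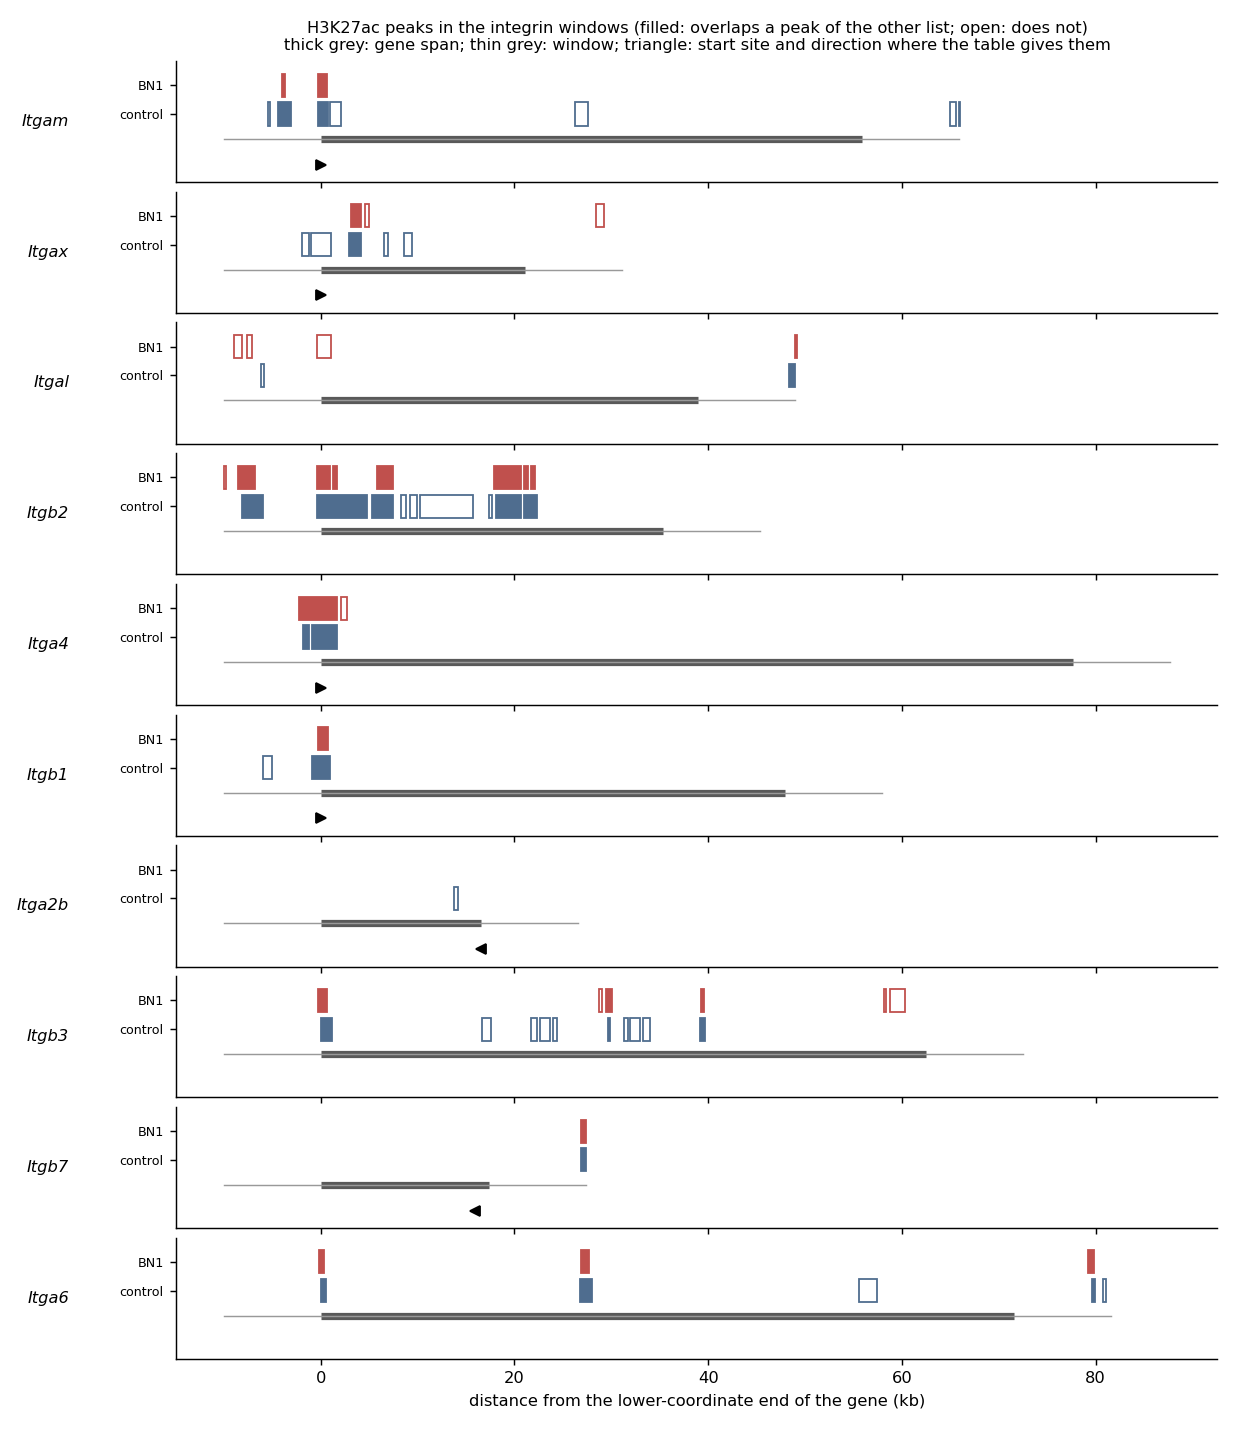
Positions of H3K27ac peaks in each window, in kb from the lower-coordinate end of the gene, BN1 above control. Blocks are cut at the window's edges, and those under 0.2 kb are drawn 0.2 kb wide. Filled blocks overlap a peak of the other list and open blocks do not, so the control-only stretch inside Itgb2, the control-only start peak of Itgax and the BN1-only peak at the lower end of Itgal appear as open blocks.

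Itga4 encodes CD49d, the alpha chain that binds VCAM and fibronectin (chromosome 2, 79255426 to 79333114). It had 2 peaks over 4532 bp in the BN1 list and 2 peaks over 3275 bp in the control list, a 1.38-fold greater length in the BN1 list (2.25-fold per Mb). A single BN1 peak of 3892 bp across the start site covered both control peaks, of 687 and 2588 bp, completely. A second BN1 peak of 640 bp with its summit 2.3 kb after the start had no control counterpart. No peak lay in the rest of this long gene, the widest of the 10 windows at 97689 bp. With 50 kb flanks the difference was -200 bp (5102 bp in the BN1 list and 5302 bp in the control list).

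Itgb1, the widely expressed beta chain CD29 (chromosome 8, 128685654 to 128733579), had 1 peak over 1035 bp in the BN1 list and 2 peaks over 2732 bp in the control list. The BN1 peak lay wholly inside the 1794 bp control peak across the start site, and their summits were 28 bp apart. The other control peak, of 938 bp, lay 5.5 kb before the start and had no BN1 counterpart. The control list was 2.64-fold longer in bp and 1.63-fold longer per Mb, and within the gene span itself the lengths were 745 bp in the BN1 list and 941 bp in the control list.

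Itgb7, the beta chain of gut-homing lymphocyte integrins (chromosome 15, 102215994 to 102233405), had no peak inside its span in either list. Its window reached 570 bp of a BN1 peak and 517 bp of a control peak, which overlapped each other over 1572 bp. Both peaks lie inside the neighbouring gene Rarg, a retinoic acid receptor, so the length need not belong to Itgb7. With 50 kb flanks the direction turned, with 4823 bp in the BN1 list and 6019 bp in the control list.

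Itga6 encodes CD49f, an alpha chain of laminin receptors present on stem cells, platelets and epithelia (chromosome 2, 71786886 to 71858427). It had 3 peaks over 1850 bp in the BN1 list and 5 peaks over 4385 bp in the control list. Each BN1 peak overlapped a control peak, at the lower gene end, 27.5 kb into the gene and above the gene. A control peak of 1881 bp with its summit 57.2 kb from the lower end was the largest unshared one. The control list was 2.37-fold longer in bp and 1.46-fold longer per Mb. Among peaks whose −log10 q reached 10 the direction turned, with 755 bp in the BN1 list and 579 bp in the control list.

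Itgb3, the beta chain CD61 of platelets, osteoclasts and other cells (chromosome 11, 104608000 to 104670476), had 6 peaks over 4025 bp in the BN1 list and 10 peaks over 6855 bp in the control list. The control list was 1.70-fold longer in bp and 1.05-fold longer per Mb. Only 1219 bp were common to both, or 30.3% of the BN1 length and 17.8% of the control length, so the 2 lists marked mostly separate stretches of this gene. In the control list, 7 unshared peaks over 5033 bp had summits between 17.1 and 33.4 kb from the lower gene end. In the BN1 list, 3 unshared peaks over 2136 bp reached out to 59.8 kb, the widest of them being 1550 bp. The direction in bp turned among peaks whose −log10 q reached 10, with 2512 bp in the BN1 list and 1151 bp in the control list. The widest BN1 peak had a −log10 q of 17.9 at a fold enrichment of 6.45, and the unshared control peaks had a −log10 q of 3.55 to 9.90 at fold enrichments of 3.76 to 6.57.

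Itga2b encodes CD41, the alpha chain of megakaryocytes and platelets that pairs with the beta chain of Itgb3 (chromosome 11, 102453297 to 102469883). Its window held no peak in the BN1 list and 1 peak of 424 bp in the control list, inside the gene and 2.4 kb after the start site. That peak stood at the 2.9 percentile of fold enrichment in its list (3.06), and its −log10 q was 1.85. The absence of a call in the BN1 list does not show absence of the mark at this unknown depth.

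Counted once each, the windows held 30 BN1 peaks and 42 control peaks. Of the BN1 peaks 66.7% (20 of 30, exact Clopper-Pearson 95% interval 47.2 to 82.7) overlapped a control peak, against 62.6% of all BN1 peaks. Of the control peaks 45.2% (19 of 42, interval 29.8 to 61.3) overlapped a BN1 peak, against 41.2% of all control peaks. The intervals cover counting error only and treat peaks as independent. Peaks cluster in windows, however, with 8 BN1 and 9 control peaks at Itgb2 alone. Both intervals hold the share over all peaks, which is not a test against that share. At start sites 6 of 7 BN1 peaks and 6 of 8 control peaks overlapped the other list, against 89.0% of all BN1 peaks and 80.0% of all control peaks at start sites of protein-coding genes. Inside the genes but away from the start, 9 of 14 BN1 peaks and 7 of 23 control peaks did so, against 40.4% and 17.6% of all such peaks. Itgb2 alone held 5 of these 9 BN1 peaks and 3 of these 7 control peaks. These counts are small and were not tested. The 16 unshared control peaks there covered 16993 bp. Summits of the 21 overlapping pairs lay 4 to 1872 bp apart, with a median of 171 bp, against a median of 95 bp over all 12550 overlapping pairs of the lists.

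**Figure D3:**
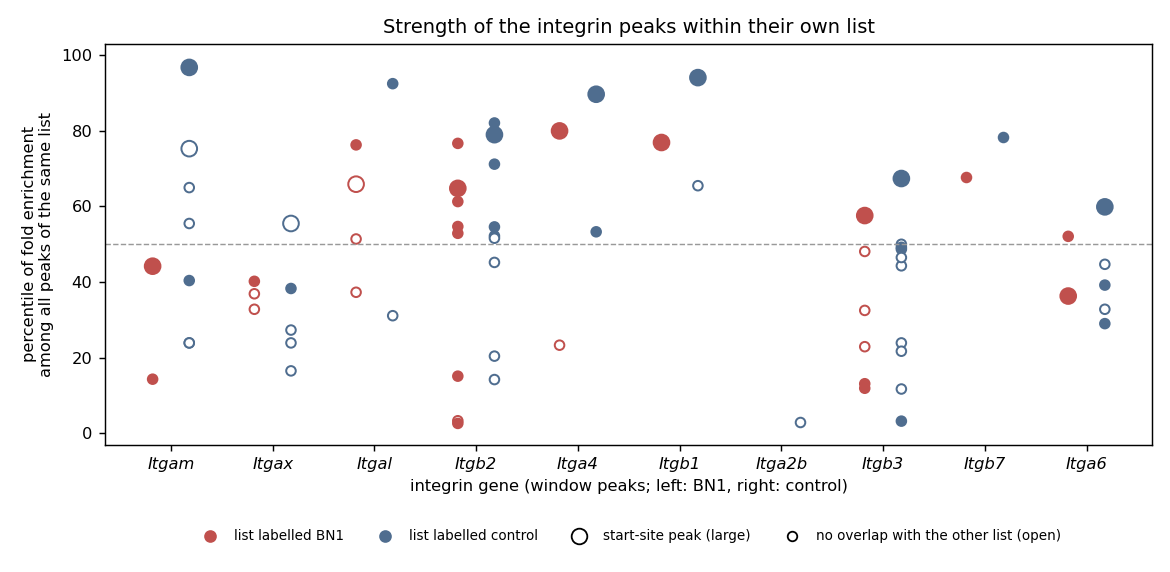
Percentile of fold enrichment of each integrin peak among all peaks of its own list, BN1 left and control right, large points for start-site peaks and open points for peaks with no overlap in the other list. The start-site peak of Itgam stands at 44.2 in the BN1 list and at 96.8 in the control list, those of Itgb1 at 77.0 and 94.1, and the one Itga2b peak of the control list at 2.9.

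Shared peaks had a median fold enrichment of 7.02 in the BN1 list and unshared ones 5.20. In the control list shared peaks had a median of 7.95 and unshared ones 5.03. The strongest BN1 peak was at the start of Itga4 (15.2) and the strongest control peak at the start of Itgam (27.4). Of the 6 start sites with a peak in both lists, Itga6 had the weakest in each (5.29 in the BN1 list and 7.95 in the control list).

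Read as receptors, both chains of the Itgam and Itgb2 pair had a start-site peak in both lists, as had both chains of the Itga4 and Itgb1 pair and of the Itga6 and Itgb1 pair. The Itgal and Itgb2 pair had start-site peaks at both genes in the BN1 list and at Itgb2 alone in the control list. The Itgax and Itgb2 pair was the reverse, with a start-site peak at Itgb2 alone in the BN1 list and at both genes in the control list. In the Itga4 and Itgb7 pair and in the Itga2b and Itgb3 pair a single chain, that of Itga4 or Itgb3, had a start-site peak, and it did so in each list. For Itgal, Itgb2, Itgb3 and Itga6 a start-site peak here means a peak at either gene end. Protein on the cell surface was not measured.

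The other 71 genes of the integrin pathway were grouped into subunits, ligands, activators, signalling proteins and restraining proteins. Of these, 14 were longer in bp in the BN1 list, 46 were longer in the control list and 11 had no peak. Among the 60 with a peak these were 23.3% and 76.7%, against 29.3% and 70.7% of all genes with a peak. Per Mb the counts were 31 and 29 (51.7% and 48.3%, against 58.2% and 41.8% of all genes with a peak). The median difference per Mb over all 71 genes, including the 11 without a peak, was 0 bp. At least 2-fold in bp, 7 were longer in the BN1 list and 24 in the control list (11.7% and 40.0%, against 10.5% and 33.9% of all genes with a peak).

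Among 17 other integrin subunits, 3 were longer in the BN1 list and 10 in the control list (5 and 8 per Mb), and 4 had no peak. Itga5, the alpha chain of the fibronectin receptor, had 1406 bp in the BN1 list and 10704 bp in the control list. Itgb5, a vitronectin receptor beta chain, had 477 bp in the BN1 list and 9640 bp in the control list. Itga8, an alpha chain known best from kidney and mesenchyme, had 503 bp in the BN1 list and 5492 bp in the control list. Itgb2l, an Itgb2-like gene expressed in mouse neutrophils, went the other way, with 4 peaks over 3609 bp in the BN1 list and none in the control list.

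Among 17 ligand genes, 4 were longer in the BN1 list and 9 in the control list (7 and 6 per Mb). Cdh1, the gene of E-cadherin, had no peak in the BN1 list and 6494 bp in the control list. Spp1, the gene of osteopontin, had none in the BN1 list and 4181 bp in the control list, and F11r, a junctional adhesion molecule, had none and 3482 bp. Icam2, a ligand of the Itgal and Itgb2 receptor on endothelium and leukocytes, had 2320 bp in the BN1 list and none in the control list.

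Among 14 genes of activation from inside the cell, 2 were longer in the BN1 list and 10 in the control list (6 and 6 per Mb). Tln1, the gene of talin, which binds beta chain tails and activates them, had 3106 bp in the BN1 list and 7666 bp in the control list. Fyb, an adaptor of that step, had 2614 bp in the BN1 list and 13228 bp in the control list, with a start-site peak in the BN1 list only. Rasgrp2, an exchange factor for the GTPase Rap, had 3375 bp in the BN1 list and none in the control list. Rassf5, a Rap effector, had 3235 bp in the BN1 list and 5600 bp in the control list.

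Among 16 signalling and cytoskeletal genes, 1 was longer in the BN1 list and 14 in the control list (8 and 7 per Mb). Ptk2b, a focal adhesion kinase relative, had 9842 bp in the BN1 list and 29362 bp in the control list. The kinase gene Src had none in the BN1 list and 10279 bp in the control list, and Lyn had 3785 bp in the BN1 list and 10200 bp in the control list. Pxn, the gene of paxillin, had 13455 bp in the BN1 list and 19430 bp in the control list, a difference that changed sign per Mb (77.4 bp). Among 7 restraining genes, 4 were longer in the BN1 list and 3 in the control list (5 and 2 per Mb). Cyth4, a cytohesin of blood cells not established as a restraining protein, had 2315 bp in the BN1 list and 20879 bp in the control list. Rasa3, which switches Rap off, had 13285 bp in the BN1 list and 12296 bp in the control list, and the kinase gene Csk had 11179 and 10301 bp in the same order. Cbl, a ubiquitin ligase, had 2613 bp in the BN1 list and 4787 bp in the control list.

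**Figure D4:**
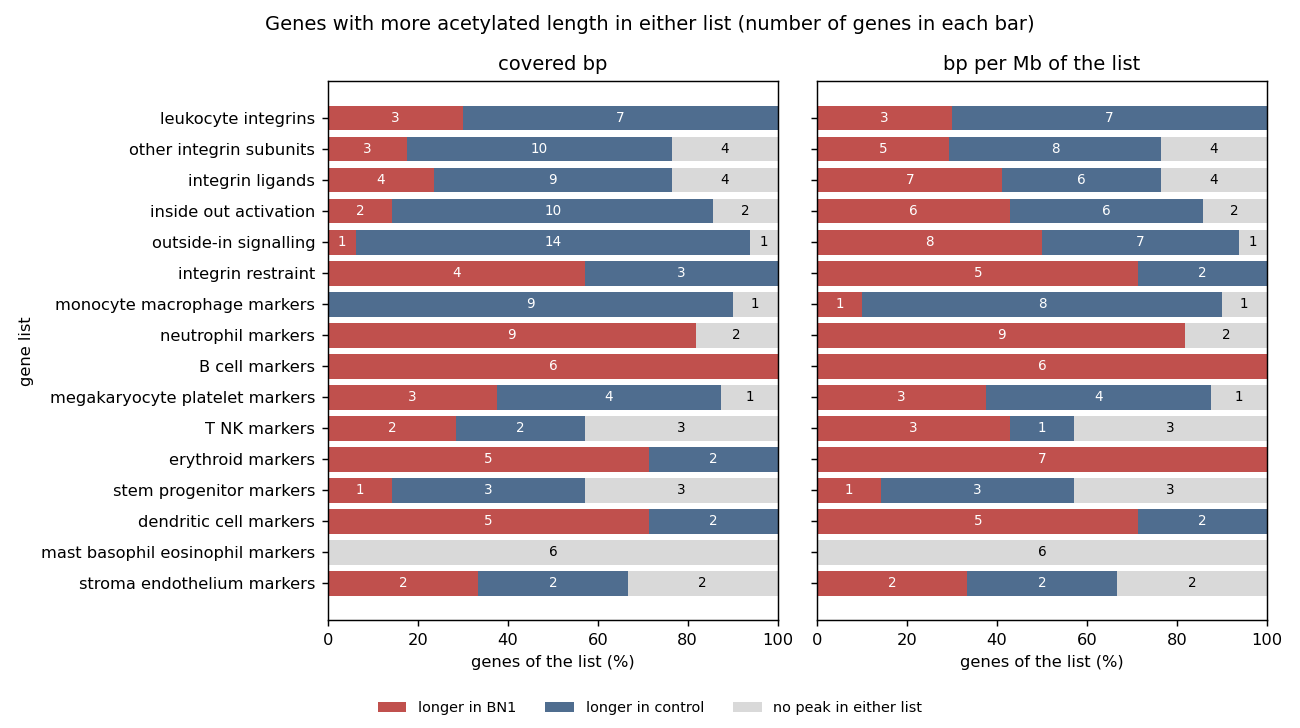
Share of the genes of each list with more covered length in the BN1 list, in the control list, or with no peak, in bp (left) and per Mb of each list's total (right), with gene numbers in the bars. The 10 leukocyte integrins keep 3 and 7 on both scales, whereas the signalling genes have 1 and 14 in bp and 8 and 7 per Mb.

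Markers of several cell types that carry these integrins differed between the lists, and their part in the integrin values was not tested. Over all genes with a peak, 29.3% were longer in the BN1 list and 70.7% in the control list in bp. Per Mb these shares were 58.2% and 41.8%. Of 10 monocyte and macrophage markers none was longer in the BN1 list and 9 were longer in the control list (1 and 8 per Mb), with summed lengths of 11187 bp and 44707 bp. Of 11 neutrophil markers 9 were longer in the BN1 list and none in the control list, with 43035 bp and 3081 bp, and Mpo and Elane had no peak in either. All 6 B cell markers were longer in the BN1 list, with 33622 bp and 3884 bp, and Cd79b, Ebf1 and Pax5 had no peak in the control list. Of 8 megakaryocyte and platelet markers 3 were longer in the BN1 list and 4 in the control list, with 7942 bp and 15990 bp. Pf4 and Ppbp, which share their peaks, had none in the BN1 list, Gp9 and Gp1bb none in the control list and Gp6 none in either. Of 7 T and NK cell markers 2 were longer in each list (3 and 1 per Mb), with 7083 bp and 7142 bp. Of 7 erythroid markers 5 were longer in the BN1 list and 2 in the control list (7 and 0 per Mb), and of 7 dendritic cell markers 5 and 2. Of 7 stem and progenitor markers 1 was longer in the BN1 list and 3 in the control list, and Kit, Gata2 and Mecom had no peak in either. None of 6 mast cell, basophil and eosinophil markers had a peak, and of 6 stromal and endothelial markers 2 were longer in each list. Neighbouring markers such as S100a8 and S100a9 can share peaks, so the sums count some regions more than once.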

How the data were processed

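H3K27ac ChIP peak lists of 1 BN1 and 1 control library were used, grouped by sample title. The submitters' processing notes name MACS3 3.0.1, Bowtie2 2.5.4, deepTools 3.5.1, Picard 3.2.0 and build mm10 (GRCm38), with no role or order. Which threshold was set, how inputs were used and whether libraries were pooled is not given in the sources used here. In the deposited lists a peak has the authors' fold enrichment (a linear ratio), their −log10 p and −log10 q, a summit position and a deposited score, which was not used. Fold enrichment was used only to describe peaks within a list. Depth is unknown.

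Gene spans and promoters came from RefSeq tables of GRCm38.p6, the assembly of mm10. Exons were not used, so exonic and intronic positions are not told apart. Covered length is the bp under peaks in the gene span with 10 kb on each side, cut at the window's edges, and peaks were shared where they overlapped by at least 1 bp. Interval counting was checked on simulated intervals. The 10 genes were given, and the 5 pathway and 10 marker lists were chosen with earlier results of these data known. One marker of the planned lists was left out of the counts and is not reported here. All 10 genes are named, with up to 4 genes of each pathway list by the size of their difference in bp; neighbours were named where a peak lay within 1000 bp of their end. Rarg, Ptprc and the markers without peaks were named after their values were seen. With 1 library per group no p-value was computed. Alternatives were lists of equal length, stricter minimums of −log10 q (5 and 10), the top 10000 peaks, flanks of 0 and 50 kb, other start windows (500 and 2500 bp), a reciprocal overlap of 50% and lengths per Mb. Scripts ran under Python 3.11.15 with pandas 2.3.3, numpy 2.4.6, scipy 1.17.1 and matplotlib 3.10.9.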

Additional observations from a re-analysis of the deposited data

How the results depend on the processing

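No paired analysis was possible because each group had 1 ChIP library and no test was run. The count of genes with peaks in the control list only was 0 among peaks whose −log10 q reached 5, with lists of equal length, with the top 10000 peaks and with 50 kb flanks, against 1 as reported. That with none in either list was 1 at both −log10 q minimums, with lists of equal length and without flanks, and 2 with the top 10000 peaks. Peaks in the BN1 list only were found at 1 gene without flanks and at 2 with the top 10000 peaks. At least 2-fold longer in the BN1 list were 2 genes among peaks whose −log10 q reached 10 and per Mb, 3 with the top 10000 peaks and 0 with 50 kb flanks. The count towards the control list, 6 as reported, was lower under each alternative. It was 4 at both −log10 q minimums and with lists of equal length, and 5 without flanks and with 50 kb flanks. It was 2 with the top 10000 peaks and 2 per Mb. A start-site peak in the control list was left at 4 genes with the top 10000 peaks. The share of overlapping control peaks was 63.2% among peaks whose −log10 q reached 10 and 80.0% with the top 10000 peaks. Under a reciprocal overlap of 50% the share was 43.3% of BN1 peaks and 31% of control peaks. The shares over all peaks under these settings are not given, so whether the integrin peaks differ from them was not tested. Of the 10 genes, 5 were longer in the BN1 list and 4 in the control list among peaks whose −log10 q reached 10, 5 and 3 with the top 10000 peaks, and 0 and 10 with 50 kb flanks, against 3 and 7 as reported. The counts of genes longer in each list, of these and of pathway genes, had their alternatives added after seeing the data. The counts of pathway genes were 31 longer in the BN1 list and 29 in the control list per Mb. The difference in bp, BN1 minus control, changed sign for Itgb3 (1361 where −log10 q reached 10 and 2512 with the top 10000 peaks) and Itga6 (176 and 755), and with 50 kb flanks for Itgal (-807), Itga4 (-200) and Itgb7 (-1196). Beyond the effect of dropping peaks or widening windows, the cause was not tested. The direction for Itgam, Itgb2 and Itgb1 was the same under every alternative run. Except per Mb, the matching shares over all genes with a peak are not given for the alternatives. With no read counts, depth cannot be set against any missing call.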
